A study of Mus musculus with 8 samples.

Results

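The 39 genes described here encode the machinery of DNA replication and mitosis, together with the cyclins, kinases and transcription factors that time them. They were taken by name from a list, and all 39 were found among the 21049 gene symbols of the expression table. They fall into 16 licensing and S-phase genes, 11 mitotic genes, 8 cyclins, and 4 kinases and transcription factors. RNA was sequenced from 4 mouse samples given alcohol and 4 control samples given saline. All carry a wild-type genotype, 1 batch label and liver as the tissue, and the strain named in the design text is C57BL/6, an inbred line of mice, of which 1 group was alcohol-fed. The labels also name AML12, a mouse hepatocyte line, and hepatocyte as the cell type, while the libraries also held Kupffer cell, endothelial and erythroid transcripts beside those of hepatocytes. No source used here gives the dose and duration of alcohol, or says that each sample came from its own animal, so a p-value measures only how these samples spread. In bulk samples, fewer cells of a type and less RNA per cell cannot be told apart.

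Before a cell copies its DNA, the origin recognition complex, Cdc6 and Cdt1 load the ring-shaped helicase built from Mcm2 to Mcm7 onto origins, a step called licensing. Cyclins D and E with Cdk4 and Cdk2 then release the E2F transcription factors, which switch on S-phase genes, and cyclins A and B with Cdk1 drive mitosis, whose genes are governed by Foxm1 and the MuvB complex. Hepatocytes of an adult liver are mostly quiescent and re-enter the cycle after loss of liver tissue, so transcripts of mitotic genes are scarce in resting liver.

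Start site windows were searched for motif letters by class, as far as windows were at hand. RefSeq start site windows on GRCm38.p6, from 250 bases before to 50 after the start, were at hand for 31 of the 39 genes (33 windows). Ccnd2, Gins1, Ccne2, Ccnd1, Aurkb, Ccna2, Mcm4 and Foxm1 had none there. Both strands were searched for 3 motifs. The E2F letters were TTTCCCGC, TTTGGCGC, TTTCGCGC and TTTGCCGC, the CHR (cell cycle genes homology region, read by MuvB) was TTTGAA or TTCGAA, and the CCAAT box, read by NF-Y, was CCAAT. The 6 windows shown belong to the helicase genes that moved in opposite directions, Mcm7, Mcm5 and Mcm6, and to the mitotic genes that fell, Cdk1, Ube2c and Mki67. Capitals mark the motif letters on either strand, and each window is written 5′ to 3′ on the strand of its gene.
Mcm7 (chr5:138171834-138172133, minus strand): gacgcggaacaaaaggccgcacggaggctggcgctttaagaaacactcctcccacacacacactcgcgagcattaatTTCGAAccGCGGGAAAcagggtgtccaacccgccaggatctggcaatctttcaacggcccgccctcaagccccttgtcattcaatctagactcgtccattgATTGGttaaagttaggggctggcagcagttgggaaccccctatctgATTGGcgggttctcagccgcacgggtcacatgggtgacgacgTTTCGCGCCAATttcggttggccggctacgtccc
Mcm5 (chr8:75109259-75109558, plus strand): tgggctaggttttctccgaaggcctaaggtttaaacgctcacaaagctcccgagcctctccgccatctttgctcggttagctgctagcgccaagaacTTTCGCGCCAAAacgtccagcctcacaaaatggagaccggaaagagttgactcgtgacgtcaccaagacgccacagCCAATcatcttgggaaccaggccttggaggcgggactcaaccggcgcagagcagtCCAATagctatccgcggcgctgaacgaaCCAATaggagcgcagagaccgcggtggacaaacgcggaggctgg
Mcm6 (chr1:128359656-128359955, minus strand): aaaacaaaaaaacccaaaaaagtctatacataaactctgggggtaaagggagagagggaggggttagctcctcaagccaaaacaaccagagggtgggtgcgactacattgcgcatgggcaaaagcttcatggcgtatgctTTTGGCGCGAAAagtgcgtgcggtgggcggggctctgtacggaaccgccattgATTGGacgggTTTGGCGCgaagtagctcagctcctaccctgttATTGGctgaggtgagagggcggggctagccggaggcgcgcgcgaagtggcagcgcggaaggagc
Cdk1 (chr10:69352863-69353162, minus strand): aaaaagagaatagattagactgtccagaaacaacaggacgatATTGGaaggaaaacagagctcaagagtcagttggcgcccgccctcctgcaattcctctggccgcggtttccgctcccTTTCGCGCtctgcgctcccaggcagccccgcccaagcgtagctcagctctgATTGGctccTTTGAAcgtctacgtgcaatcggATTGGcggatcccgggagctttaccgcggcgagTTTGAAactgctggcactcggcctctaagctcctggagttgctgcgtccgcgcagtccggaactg
Ube2c (chr2:164769679-164769978, plus strand): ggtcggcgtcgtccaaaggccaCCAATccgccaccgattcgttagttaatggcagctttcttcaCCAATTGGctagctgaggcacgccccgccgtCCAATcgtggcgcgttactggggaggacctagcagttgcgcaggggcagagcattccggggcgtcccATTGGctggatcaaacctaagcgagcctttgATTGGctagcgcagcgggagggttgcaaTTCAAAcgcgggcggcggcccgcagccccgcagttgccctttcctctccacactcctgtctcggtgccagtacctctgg
Mki67 (chr7:135716330-135716629, minus strand): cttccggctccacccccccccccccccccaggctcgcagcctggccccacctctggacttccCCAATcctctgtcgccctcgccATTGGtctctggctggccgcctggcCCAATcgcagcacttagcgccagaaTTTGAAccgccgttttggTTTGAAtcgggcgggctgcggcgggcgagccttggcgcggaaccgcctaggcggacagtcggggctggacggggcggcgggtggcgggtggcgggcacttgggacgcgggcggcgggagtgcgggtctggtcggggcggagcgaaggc

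In the Mcm5 window, E2F letters of both strands overlapped, beginning 153 and 149 bases before the start site. The Mcm6 window held 3 E2F matches, at 110, 106 and 47 bases before its start. Mcm7 has another RefSeq window, with a single CCAAT match and no E2F letters, while the window shown has E2F letters at 165 bases before and at base 17 after the start. Cdk1 held E2F letters once and the CHR at 71 and 15 bases before the start, and Ube2c held the CHR once and CCAAT letters 6 times. In Ube2c the CCAAT letters at 186 and 183 bases before the start overlap on opposite strands.

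Over the classes, E2F letters lay in 53.3% of the 15 licensing and S-phase windows, in 1 of the 10 mitotic windows and in 0 of the 5 cyclin windows, against 2.3% of all 32851 RefSeq windows. The 5 cyclin windows came from 4 of the 8 cyclins, with 2 from Ccnd3. They say nothing of Ccne2, Ccnd2, Ccnd1 and Ccna2, which had no window. The CHR lay in 3 of the 15 licensing and S-phase windows, 9 of the 10 mitotic windows and 1 of the 5 cyclin windows, against 19.2% of all windows. CCAAT letters were in 12 licensing and S-phase windows, 9 mitotic windows and 3 cyclin windows, against 37.4% of all windows. Matches to different motifs overlapped in 1 window of these genes and matches to the same motif in 3. A match is a description of letters and not a measured binding site.

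**Figure D1:**
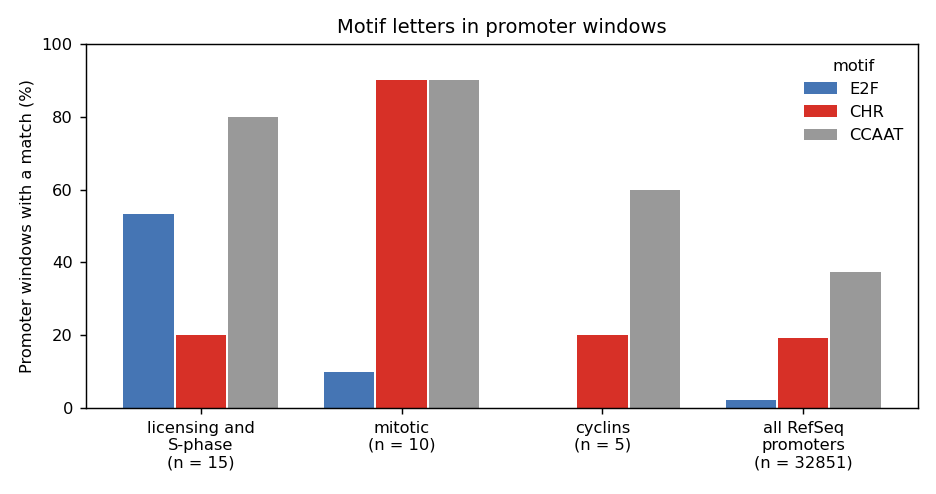
Share of start site windows (%, vertical axis) that hold E2F, CHR or CCAAT letters, for the licensing and S-phase genes, the mitotic genes, the cyclins and all RefSeq windows; bars start at 0. E2F letters are commonest in the licensing and S-phase windows (53.3%) and the CHR in the mitotic windows (90.0%). The 5 cyclin windows are from 4 of the 8 cyclins.

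With alcohol, most of the genes that passed the test were lower. They took in helicase subunits, the sliding clamp Pcna, the mitotic genes Cdk1, Ube2c and Mki67, and cyclins D3 and E1, while Mcm7, Ccnd2 and Ccne2 rose. Levels are in FPKM, fragments scaled to gene length and library total. A gene was called by limma on log2(FPKM + 1) with a Benjamini-Hochberg adjusted p under 0.05, with genes averaging at least 1 FPKM in a fit of their own and the rest in a fit of all 21049 listed genes. Of the 14 genes averaging 1 FPKM or more, 1 rose and 6 fell, beside 44.2% of all 9228 such genes that rose and 13.0% that fell. Mcm6, which fell, met that minimum only through its controls, averaging 0.740 FPKM with alcohol and 1.74 FPKM in controls. Of the 25 genes under 1 FPKM, 2 rose and 6 fell, beside 12.7% and 3.09% of the 11821 listed genes under 1 FPKM, or 24.2% and 6.39% of all listed genes. Those shares are lowered by genes with few or no reads, which could hardly pass. Of the 11821, 7647 had at least 8 reads in all and reads in both groups. In all, 12 of the 39 genes fell, 3 rose and 24 did not pass. The alcohol mean was the lower one for 31 of the 39 genes, against 36.2% of the 18394 listed genes with reads in both groups. Their median ratio of alcohol to control FPKM was 0.674, against 1.23 for those 18394 genes. The whole table was shifted upward with alcohol, by a median log2 change of 0.24 over the tested genes, and changes below are given without removing that shift. Scaling by median ratios moved this median to -0.03 and the whole table's calls to 2170 rises and 2616 falls (4080 and 1203 without that scaling), and quantile normalization gave 2270 rises and 2275 falls.

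The 2 groups did not overlap, each alcohol sample lying on the same side of each control sample, for 15 of the 39 genes. For 11 of these the alcohol samples were all lower and for 4 all higher, beside 6.85% and 24.8% of all listed genes. The listed genes include many with few or no reads. At 1 FPKM or more these shares were 10.7% and 39.5%. Counts by class mix the 2 fits. At 1 FPKM or more were 10 of the 16 licensing and S-phase genes but 0 of the 11 mitotic genes. Over all genes 44.2% rose and 13.0% fell at 1 FPKM or more, and 12.7% and 3.09% under it, genes with few or no reads included. In limma-voom on reads, described below, 5 of 15 licensing and S-phase genes and 4 of 6 mitotic genes fell, beside 10.9% of its genes. Its minimum, 10 reads in at least 4 samples, was met by Mki67 and Birc5 mainly through their controls. The mitotic count can therefore lean toward falls. Of 16 licensing and S-phase genes, 5 fell and 1 rose, with ratios of alcohol to control from 0.251 to 1.66 and a median of 0.724. Of 11 mitotic genes, 3 fell and 0 rose, with a median ratio of 0.382 and a lower alcohol mean for 10 of the 11. The 8 cyclins split evenly, with 2 that rose and 2 that fell, and their ratios ran from 0.312 to 4.76. Of the 4 kinases and transcription factors, 2 fell. No test compared the classes with each other.

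**Figure D2:**
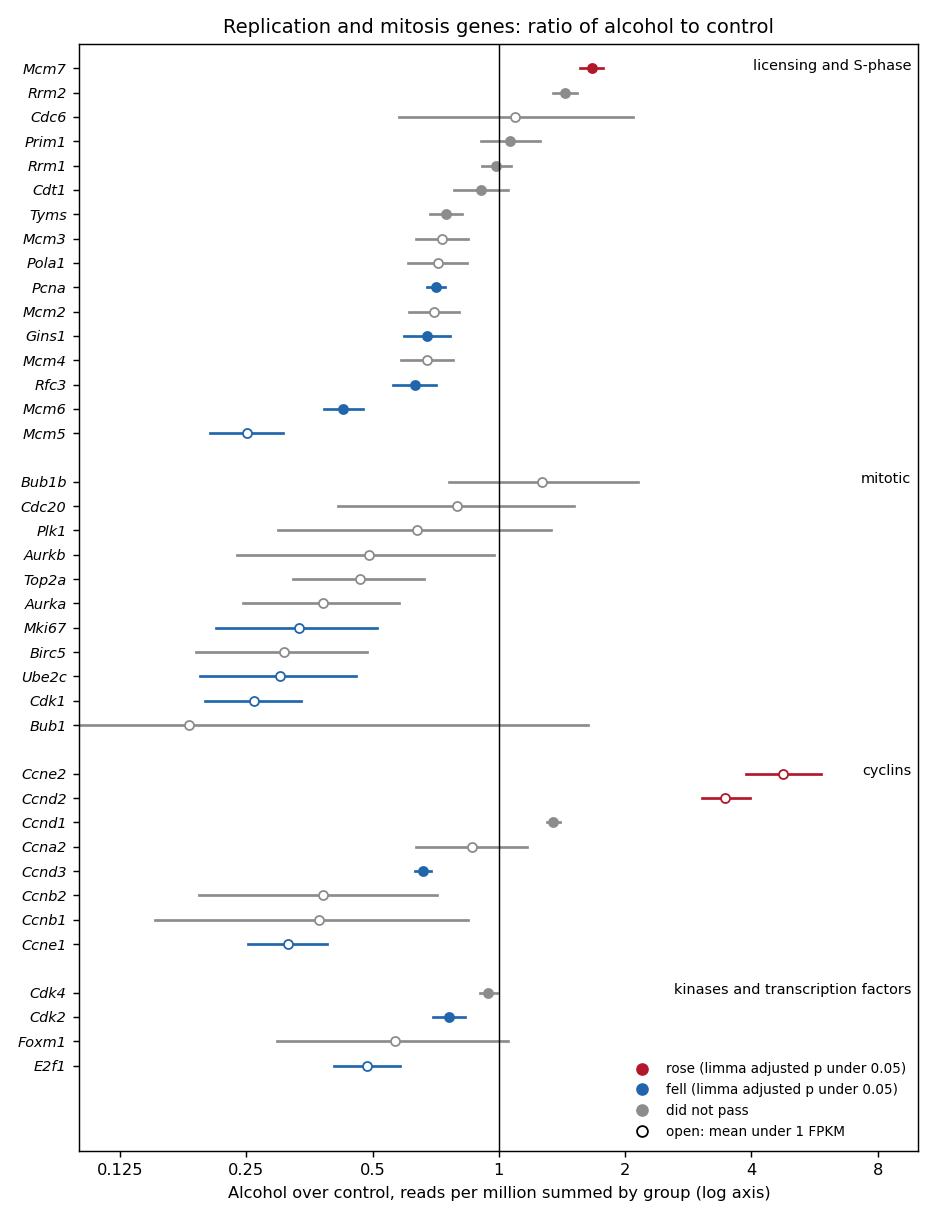
Ratio of alcohol to control in depth-scaled reads summed over each group (log axis) for each of the 39 genes, by class, with 95% counting intervals as lines; red rose, blue fell, grey did not pass, and open points have a mean under 1 FPKM. The mitotic genes lie mostly left of 1, and Ccne2 and Ccnd2 lie farthest to the right; the interval of Bub1 runs off the left edge.

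Read support set what could be seen. Reads per gene were worked back from the FPKM values, and the libraries held 37132631 to 38407511 reads with alcohol and 33872595 to 34789814 reads in controls. The 14 genes of at least 1 FPKM had between 52 reads (Prim1, control replicate 4) and 2876 reads (Ccnd1, alcohol replicate 1) in a library. Of the 39 genes, 30 had at least 10 reads in at least 4 samples. The other 9, namely Cdc6, Plk1, Aurkb, Bub1, Bub1b, Cdc20, Ccnb1, Ccnb2 and Foxm1, never passed 17 reads in a library, so their values are weakly supported, and none of them passed the main test. A library with 0 reads allows up to 3 reads, for counting error only. A second test of the recovered reads, limma-voom on the 13312 genes with that support, called 3 of the 30 genes as risen and 13 as fallen, beside 41.6% and 10.9% of its genes. With median-of-ratios scaling that test called 3 as risen and 20 as fallen, beside 23.5% and 23.2% of its genes, with 9 falls among the licensing and S-phase genes in place of 5 and 6 among the mitotic genes in place of 4. A gene scarce with alcohol could meet the read minimum through its controls alone, so these counts can lean toward falls.

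**Figure D3:**
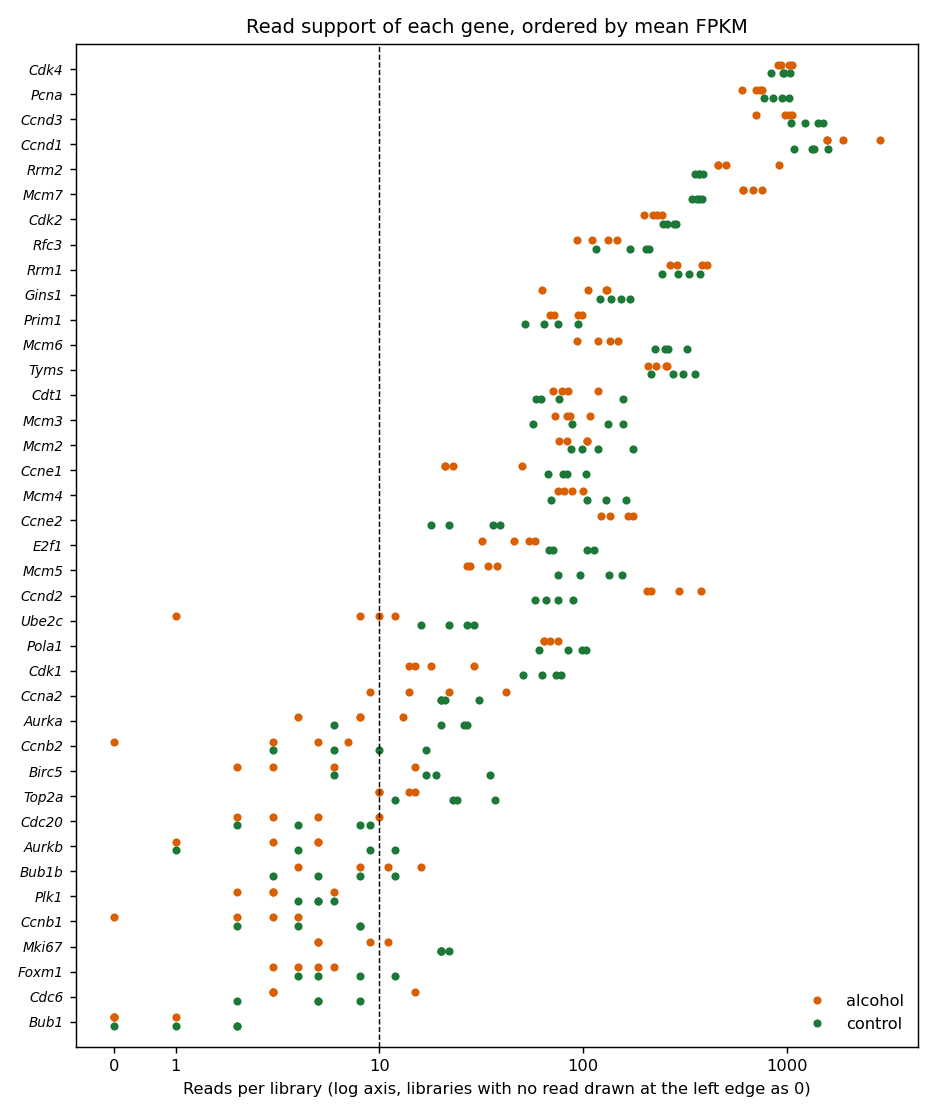
Reads in each library (log axis, with 0 at the left edge) for the 39 genes in order of mean FPKM, alcohol in orange above control in green; the dashed line marks 10 reads. Bub1, Cdc6 and Foxm1 stand at the bottom with at most 15 reads, and Cdk4 and Pcna at the top with 604 or more.

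Among the helicase genes, alcohol samples had less Mcm5 and Mcm6 and more Mcm7. Mcm5 (chr8:75109569-75128439), a subunit at the gate where the ring opens, stood at 0.289, 0.219, 0.204 and 0.266 FPKM in the alcohol samples, against 1.12, 1.32, 0.813 and 0.644 FPKM in the controls. All 4 alcohol values lay below all 4 control values. The reads were 127 in all with alcohol and 462 in controls, a depth-scaled ratio of 0.251 (95% counting interval 0.204 to 0.306). Mcm5 fell by 0.65 ± 0.11 on the log2 scale (SE; limma adjusted p = 0.00309, fit of all listed genes), on a scale that understates changes of low genes.

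Mcm6 (chr1:128331590-128359664), another ring subunit, stood at 0.802, 0.565, 0.870 and 0.723 FPKM with alcohol, against 1.64, 2.14, 1.46 and 1.73 FPKM in controls. The groups did not overlap, and Mcm6 fell by 0.65 ± 0.10 on the log2 scale (limma adjusted p = 0.000395). Mcm7 (chr5:138164583-138172422), a subunit of the same ring, had 6.88, 5.71, 6.17 and 5.71 FPKM with alcohol, against 3.81, 3.76, 3.42 and 3.73 FPKM in controls. Here every alcohol sample was above every control sample, and the log2 change was 0.60 ± 0.09 (limma adjusted p = 0.000337). Mcm7 held 2664 reads with alcohol and 1460 in controls, a ratio of 1.66 (1.56 to 1.78), and its log2 change stayed between 0.29 and 0.79 under every alternative setting run. Its exons share 321 bases with Ap4m1 and 64 with Cops6 on the other strand. Ap4m1 stood at 2.60 ± 0.175 FPKM with alcohol and 2.48 ± 0.269 FPKM in controls (SD, n = 4 each; limma adjusted p = 0.644), and Cops6 at 78.2 ± 8.93 and 77.0 ± 8.55 FPKM in the same order (limma adjusted p = 0.894). Whether the libraries kept strand, no source used here says.

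The other 3 subunits did not pass the main test. Mcm2 averaged 0.726 ± 0.121 FPKM with alcohol and 1.03 ± 0.342 FPKM in controls (limma adjusted p = 0.216), Mcm3 0.764 ± 0.123 and 1.04 ± 0.430 FPKM (limma adjusted p = 0.421), and Mcm4 0.635 ± 0.0747 and 0.942 ± 0.311 FPKM (limma adjusted p = 0.18; SD, n = 4 each). Alcohol and control samples overlapped for each of them, and control replicate 4 had the lowest control value of Mcm3 and Mcm4. Without that library the adjusted p of Mcm4 was 0.043. Mcm4 also passed as a fall under scaling by median ratios and quantile normalization, and Mcm2 under quantile normalization. Both passed as falls in limma-voom with median-of-ratios scaling (adjusted p = 0.0135 for Mcm4 and 0.0215 for Mcm2). Summed over all 6 subunits, Mcm2 to Mcm7, the level was 10.1, 8.58, 9.35 and 8.84 FPKM with alcohol, against 9.18, 11.6, 8.82 and 8.10 FPKM in controls, and the groups overlapped. Because Mcm7 moved the other way, the ratio of Mcm7 to Mcm5, a pair chosen after their values were seen, was 21.5 to 30.2 with alcohol and 2.85 to 5.80 in controls. That of Mcm7 to Mcm6 was 7.10 to 10.1 with alcohol and 1.76 to 2.34 in controls.

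The loaders of the helicase gave no call. Cdt1, which brings the ring to the origin, stood at 0.847, 0.971, 1.41 and 1.03 FPKM with alcohol, against 0.997, 2.10, 0.776 and 0.835 FPKM in controls (limma adjusted p = 0.838). The groups overlapped, and control replicate 2 had the highest value of the 8. Cdc6, its partner in loading, had 3, 3, 3 and 15 reads with alcohol and 8, 2, 5 and 5 reads in controls, a ratio of 1.09 with a counting interval from 0.579 to 2.09 (limma adjusted p = 0.921). Without alcohol replicate 4 its log2 change was -0.02, against 0.0040 with all samples.

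Genes of the moving replication fork were lower with alcohol where they passed. Pcna, the ring that clamps polymerases to DNA and the most abundant gene of the class, stood at 12.5, 15.9, 15.6 and 15.1 FPKM with alcohol, against 17.7, 23.8, 21.7 and 20.1 FPKM in controls. No alcohol sample reached the lowest control, and Pcna fell by 0.47 ± 0.12 on the log2 scale (limma adjusted p = 0.00603). Rfc3, a subunit of the factor that loads that clamp, had 1.42, 2.09, 2.24 and 1.75 FPKM with alcohol and 1.95, 3.57, 3.44 and 2.93 FPKM in controls. Control replicate 1 lay among the alcohol samples, so the groups overlapped, and the log2 change was -0.46 ± 0.15 (limma adjusted p = 0.0238). Leaving out alcohol replicate 1 or 4 (adjusted p = 0.0625 and 0.0529) or control replicate 2, 3 or 4 (0.0694, 0.0695 and 0.0503) ended that call. So did the TPM scale and a fit without the expression minimum.

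Gins1, part of the complex that activates the helicase, stood at 2.13, 2.18, 1.72 and 1.06 FPKM with alcohol, against 2.46, 3.09, 2.77 and 2.23 FPKM in controls. The groups were separate by a narrow margin, with a log2 change of -0.41 ± 0.14 (limma adjusted p = 0.0333). That call was lost without alcohol replicate 3 or 4 (adjusted p = 0.0628 and 0.0841) and without control replicate 2 or 3 (0.0898 and 0.076), and without alcohol replicate 4 the log2 change was -0.27. The Gins1 call was also lost on the TPM scale and without the expression minimum. Pola1, the catalytic subunit of polymerase alpha, averaged 0.323 ± 0.0229 FPKM with alcohol and 0.451 ± 0.0961 FPKM in controls (SD, n = 4 each; limma adjusted p = 0.0871). It passed without control replicate 4, whose 0.323 FPKM was the lowest control value (adjusted p = 0.0147). Pola1 also passed as a fall under scaling by median ratios, quantile normalization, and limma-voom with median-of-ratios scaling (adjusted p = 0.01 in the last). Prim1, the primase that starts each new strand, averaged 1.45 ± 0.289 and 1.35 ± 0.343 FPKM in the same order, with overlapping groups (limma adjusted p = 0.701).

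Suppliers of DNA building blocks did not pass the main test. Rrm2, the regulated subunit of ribonucleotide reductase, stood at 5.49, 6.25, 10.9 and 5.66 FPKM with alcohol, against 4.87, 4.73, 4.89 and 5.27 FPKM in controls. All alcohol samples were above all controls, but replicate 3 stood far above the other alcohol samples, and the log2 change of 0.40 ± 0.17 had a limma adjusted p of 0.0723. Without alcohol replicate 3 the log2 change was 0.19 (adjusted p = 0.127), and without alcohol replicate 1 it was 0.49 (0.0437). Rrm1, its large subunit, averaged 2.22 ± 0.417 FPKM with alcohol and 2.26 ± 0.402 FPKM in controls (limma adjusted p = 0.915). Rrm1 passed as a fall under quantile normalization. Tyms, thymidylate synthase, averaged 1.06 ± 0.1002 FPKM with alcohol and 1.41 ± 0.284 FPKM in controls (SD, n = 4 each; limma adjusted p = 0.0868). Its groups overlapped through control replicate 1, without which the adjusted p was 0.0174. Tyms also passed as a fall under scaling by median ratios, quantile normalization, and limma-voom with median-of-ratios scaling (adjusted p = 0.00848 in the last).

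**Figure D4:**
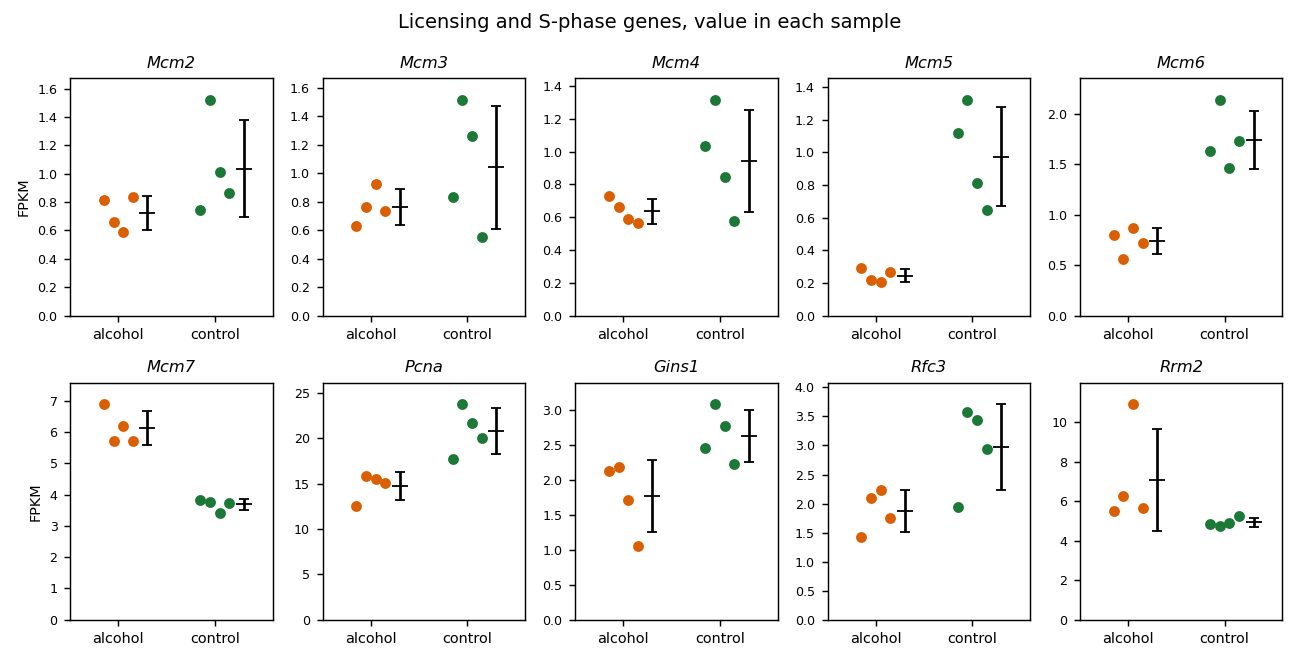
FPKM in each sample (points) of 10 licensing and S-phase genes, alcohol on the left and control on the right of each panel, with the mean and SD (n = 4) as a bar beside the points and a vertical axis of its own from 0. Mcm5 and Mcm6 sit below their controls without overlap and Mcm7 above them, with 5.71 to 6.88 FPKM against 3.42 to 3.81.

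The mitotic genes were scarce in both groups, and 3 of the 11, Cdk1, Ube2c and Mki67, fell with alcohol while 8 did not pass. All 11 lay under 1 FPKM, and their summed level was 0.921, 0.748, 0.511 and 1.01 FPKM with alcohol, against 1.88, 2.16, 2.47 and 1.88 FPKM in controls. The alcohol samples all lay below the controls, on 333 reads with alcohol and 796 in controls. Cdk1 (chr10:69335146-69352938), the kinase that starts mitosis, had 29, 14, 15 and 18 reads with alcohol and 51, 74, 78 and 63 reads in controls. In level this was 0.116 ± 0.0406 FPKM with alcohol and 0.444 ± 0.0810 FPKM in controls (SD, n = 4 each), without overlap. The ratio was 0.261 (0.199 to 0.337) and the limma adjusted p 0.001.

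Ube2c (chr2:164769898-164778822), the ubiquitin-conjugating enzyme of the anaphase-promoting complex, had 10, 12, 1 and 8 reads with alcohol and 16, 22, 29 and 27 reads in controls. The groups did not overlap, and alcohol replicate 3 was the lowest with its single read. The ratio was 0.301 (0.194 to 0.456), with a limma adjusted p of 0.00883. Its exons share 592 bases with Tnnc2 on the other strand, which was listed at 0 FPKM in every alcohol sample and averaged 0.0418 ± 0.0587 FPKM in controls. Mki67 (chr7:135689784-135716361), which encodes the proliferation antigen Ki-67 that coats mitotic chromosomes, had 5, 11, 5 and 9 reads with alcohol and 22, 20, 20 and 20 reads in controls. Each alcohol library held fewer reads than each control library, at 0.0195 ± 0.00811 FPKM with alcohol and 0.0581 ± 0.00246 FPKM in controls, and a ratio of 0.334 (0.212 to 0.513). The limma adjusted p was 0.00151, on a log2 change of only -0.05, since values this low barely move on the log2(FPKM + 1) scale. Limma-voom on reads gave an adjusted p of 0.00534. The control libraries, at 20 to 22 reads, lay closer together than counting error alone would put them on average.

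Several of the other 8 mitotic genes had a counting interval below 1 without passing the test over samples. Top2a, the topoisomerase that untangles sister chromatids, had 49 reads with alcohol and 96 in controls (ratio 0.466, 0.323 to 0.663; limma adjusted p = 0.0741). For Aurka, a kinase of the spindle poles, the reads were 33 with alcohol and 79 in controls (0.381, 0.246 to 0.579; limma adjusted p = 0.0826). Birc5, or survivin, of the chromosomal passenger complex, had 26 and 77 reads in the same order (0.308, 0.190 to 0.486; limma adjusted p = 0.124), and limma-voom on reads called it as fallen (adjusted p = 0.0457). In each of these 3, 1 control library lay within the alcohol range. Without control replicate 4 the limma adjusted p was 0.0184 for Top2a and 0.045 for Birc5, and without control replicate 2 it was 0.00568 for Aurka. In limma-voom with median-of-ratios scaling Top2a, Aurka and Birc5 passed as falls (adjusted p = 0.0185, 0.0405 and 0.0227). Top2a also passed under scaling by median ratios and quantile normalization.

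Aurkb, the kinase of the passenger complex, had 14 reads with alcohol and 26 in controls (ratio 0.491, 0.237 to 0.976). Its samples overlapped, with 1 to 5 reads in an alcohol library and 1 to 12 in a control library (limma adjusted p = 0.358). Plk1, a kinase of centrosomes and kinetochores, had 14 and 20 reads in the same order (0.638, 0.298 to 1.33; limma adjusted p = 0.164), and passed without alcohol replicate 4 (0.0192). Plk1 also passed as a fall under scaling by median ratios and quantile normalization. The APC/C activator Cdc20 had 20 reads with alcohol and 23 in controls (0.793, 0.413 to 1.51; limma adjusted p = 0.695). Cdc20 shares 53 exon bases with Elovl1 on the other strand, which rose. Elovl1 stood at 10.6 ± 0.634 FPKM with alcohol and 7.76 ± 1.14 FPKM in controls (SD, n = 4 each; limma adjusted p = 0.00784). Bub1 and Bub1b, both of the spindle checkpoint, had 1 and 39 reads with alcohol and 5 and 28 reads in controls. Their ratios were 0.182 (0.00386 to 1.63) and 1.27 (0.762 to 2.14), and neither passed (limma adjusted p = 0.274 and 0.642).

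Within the cyclins, the members of a pair moved apart. Ccne1 and Ccne2 encode the E cyclins that take a cell into S phase with Cdk2. Ccne2 (chr4:11191351-11204779) stood at 0.978, 1.12, 1.40 and 1.37 FPKM with alcohol, against 0.344, 0.322, 0.159 and 0.199 FPKM in controls. Its lowest alcohol sample was well above its highest control, with 599 reads against 115, a ratio of 4.75 (3.88 to 5.85) and a log2 change of 0.82 ± 0.09 (limma adjusted p = 0.000536). Ccne1 (chr7:38097984-38107534) went the other way, at 0.280, 0.289, 0.666 and 0.317 FPKM with alcohol and 1.22, 1.19, 0.988 and 1.57 FPKM in controls. These groups did not overlap either, although alcohol replicate 3 was the highest of its group, and Ccne1 had a ratio of 0.314 (0.252 to 0.389) and a log2 change of -0.69 ± 0.11 (limma adjusted p = 0.00327).

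In consequence the ratio of Ccne2 to Ccne1 in FPKM, chosen after their values were seen, was 3.49, 3.89, 2.10 and 4.33 with alcohol, against 0.282, 0.270, 0.161 and 0.127 in controls. Ccne2 was the more abundant E cyclin in all 4 alcohol samples and Ccne1 in all 4 controls. Ccne2 shares 609 exon bases with Ints8 on the other strand, which stood at 2.89 ± 0.311 FPKM with alcohol and 2.84 ± 0.447 FPKM in controls (SD, n = 4 each; limma adjusted p = 0.876).

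The D cyclins, which pair with Cdk4 and Cdk6 in G1, differed among themselves while their sum did not separate the groups, at 22.2 to 28.0 FPKM with alcohol and 23.3 to 27.9 FPKM in controls. Ccnd2 (chr6:127125162-127152193) had 0.684, 1.24, 0.651 and 0.963 FPKM with alcohol, against 0.262, 0.205, 0.231 and 0.319 FPKM in controls. All 4 alcohol samples were above all controls, on 1095 reads against 288, a ratio of 3.47 (3.04 to 3.96), with a log2 change of 0.58 ± 0.10 (limma adjusted p = 0.00394). Its exons overlap 2 antisense genes on the other strand, 9330179D12Rik and Gm43126, that were not analysed here. Ccnd3 (chr17:47505051-47599691) stood at 7.37, 11.4, 10.6 and 10.5 FPKM with alcohol and 12.1, 16.6, 17.2 and 14.5 FPKM in controls, without overlap. It fell by 0.56 ± 0.15 on the log2 scale (limma adjusted p = 0.00821). Ccnd3 shares 361 exon bases with Bysl on the other strand, which rose, at 7.78 ± 0.580 FPKM with alcohol and 3.72 ± 0.729 FPKM in controls (limma adjusted p = 0.00018).

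Ccnd1 (chr7:144929931-144939925), the D cyclin induced when hepatocytes leave quiescence, stood at 19.9, 13.6, 10.9 and 11.2 FPKM with alcohol, against 12.1, 10.3, 10.5 and 8.48 FPKM in controls. Alcohol replicate 1 was far the highest, control replicate 1 lay among the remaining alcohol samples, and the log2 change of 0.37 ± 0.18 did not pass (limma adjusted p = 0.095). Without alcohol replicate 1 the change was 0.19 (adjusted p = 0.237). Ccnd1 shares 1100 exon bases with LTO1 on the other strand, which averaged 1.44 ± 0.139 FPKM with alcohol and 1.80 ± 0.115 FPKM in controls (SD, n = 4 each; limma adjusted p = 0.0673).

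The A and B cyclins of S phase and mitosis were scarce and none passed. Ccna2 had 9, 22, 14 and 42 reads with alcohol and 20, 31, 20 and 21 reads in controls (ratio 0.862, 0.636 to 1.17; limma adjusted p = 0.726). Alcohol replicates 1 and 4 were the lowest and the highest of the 8, so the alcohol samples spread over the whole control range. Ccna2 shares 510 exon bases with Exosc9 on the other strand, which rose. Exosc9 stood at 6.51 ± 0.433 FPKM with alcohol and 4.65 ± 0.701 FPKM in controls (SD, n = 4 each; limma adjusted p = 0.00775). Ccnb1 had 9 reads with alcohol and 22 in controls (0.373, 0.151 to 0.843; limma adjusted p = 0.13). For Ccnb2 there were 15 and 36 reads in the same order (0.380, 0.193 to 0.712; limma adjusted p = 0.204). Both B cyclins had 1 alcohol library with 0 reads, and their groups overlapped. Without control replicate 4, Ccnb1 passed (limma adjusted p = 0.0453).

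**Figure D5:**
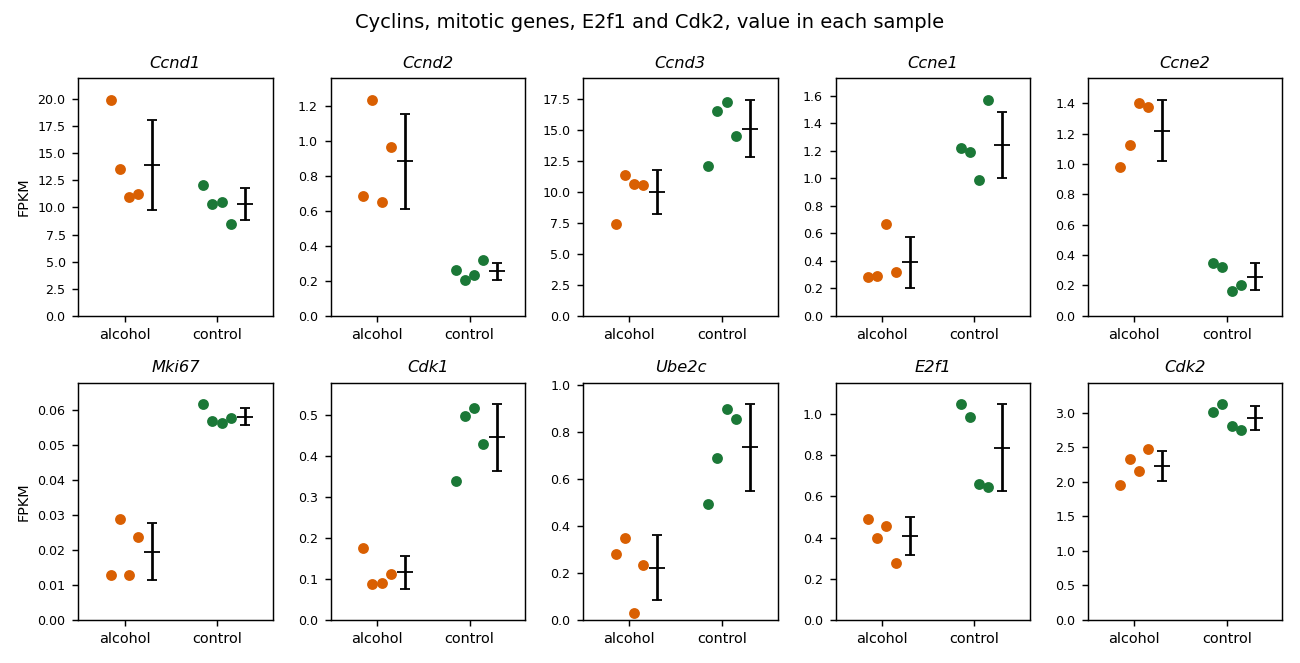
FPKM in each sample (points) of 5 cyclins, 3 mitotic genes, E2f1 and Cdk2, alcohol left of control in each panel, with mean and SD (n = 4) beside the points and each vertical axis starting at 0. Ccne2 and Ccnd2 sit above their controls in all samples, and Ccne1, Ccnd3, Mki67, Cdk1, Ube2c, E2f1 and Cdk2 below; Ccnd1 overlaps.

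Of the kinases and transcription factors, Cdk2 and E2f1 fell. Cdk2, the partner of cyclins E and A, stood at 1.96, 2.33, 2.16 and 2.47 FPKM with alcohol, against 3.02, 3.12, 2.81 and 2.74 FPKM in controls. The groups did not overlap, and the log2 change was -0.28 ± 0.09 (limma adjusted p = 0.0201). That call was lost on the TPM scale (0.137), without alcohol replicate 1 (0.0503) and without control replicate 2 (0.0553). E2f1, an activator of S-phase genes, had 0.489, 0.400, 0.454 and 0.278 FPKM with alcohol and 1.05, 0.987, 0.660 and 0.648 FPKM in controls. Every alcohol sample was below every control, on 190 reads against 357, a ratio of 0.485 (0.405 to 0.580; limma adjusted p = 0.0167). Cdk4, the partner of the D cyclins, averaged 18.4 ± 1.64 FPKM with alcohol and 19.4 ± 1.86 FPKM in controls (SD, n = 4 each), with overlapping groups (limma adjusted p = 0.551). Cdk4 passed as a fall under scaling by median ratios and in limma-voom with that scaling (adjusted p = 0.0176 in the latter), while its sign turned on the TPM scale. It shares 641 exon bases with Tspan31 on the other strand, which fell to 108 ± 1.79 FPKM with alcohol, against 155 ± 4.94 FPKM in controls (limma adjusted p = 0.000828). Foxm1, the activator of mitotic genes, had 18 reads with alcohol and 29 in controls (0.566, 0.296 to 1.05; limma adjusted p = 0.224).

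Of the 15 called genes, 12 kept their call under every alternative that included them and none changed sign, and the exceptions were Gins1, Rfc3 and Cdk2. Mki67 was in 16 of the 17 alternatives, as it lay under the alternative minimum of 0.1 FPKM. Leaving out control replicate 2 left 3 of the 6 falls among the genes of at least 1 FPKM, leaving out alcohol replicate 1 gave 2 rises there in place of 1, and leaving out control replicate 4 gave 11 falls in place of 6 among those under 1 FPKM. Scaling by median ratios gave 10 falls among those under 1 FPKM, and rescaling each column to a TPM total gave 3 rises and 3 falls among the genes of at least 1 FPKM.

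Other genes of the same pathways were read from lists, by the count that passed in each direction. Of all tested genes, 44.2% rose and 13.0% fell. Of 22 other replication genes tested, 11 fell and 5 rose, with a median log2 change of -0.31 beside 0.24 for all tested genes. The rises were those of Orc2 to Orc5 and Rfc1. Mcm10, which helps to activate the helicase, fell to 11.3 ± 1.05 FPKM with alcohol, against 31.3 ± 7.0 FPKM in controls (limma adjusted p = 3.79e-05). Gins4, a partner of Gins1, fell to 7.68 ± 0.679 FPKM, against 12.5 ± 1.03 FPKM (limma adjusted p = 0.000374). Gmnn, or geminin, which blocks Cdt1, fell as well, with a log2 change of -0.84 ± 0.13. Of 8 other mitotic genes tested, 5 fell and 1 rose, with a median log2 change of -0.54. The 1 FPKM minimum was set on the mean of all samples. Fen1 of the replication list, Spc25 and Cenpa met it only through their controls, averaging 0.776, 0.619 and 0.896 FPKM with alcohol. Counts and medians of the tested genes can therefore lean toward falls. The kinetochore subunits Spc24 and Spc25 stood at 2.19 ± 0.575 and 0.619 ± 0.254 FPKM with alcohol, against 9.54 ± 3.25 and 2.79 ± 0.345 FPKM in controls (SD, n = 4 each; limma adjusted p = 9.05e-05 and 2.25e-05). The centromere histone Cenpa fell by 0.70 ± 0.12 on the log2 scale, and Ccnf, cyclin F, rose by 0.78 ± 0.10. Of the listed genes under 1 FPKM, 5 replication genes of 17 fell and 1 rose, and 6 mitotic genes of 30 fell and 2 rose. Among all 11821 genes under 1 FPKM, 3.09% fell and 12.7% rose, genes with few or no reads included.

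Upstream regulators are set beside the shares of all tested genes given above, 44.2% that rose and 13.0% that fell. Of 7 CDK inhibitors and pocket proteins tested, 2 rose, a smaller share than of all tested genes, and 0 fell. Cdkn1a, or p21, the inhibitor of Cdk2, stood at 60.9, 33.6, 64.5 and 32.2 FPKM with alcohol, against 1.06, 1.82, 1.47 and 1.01 FPKM in controls, a log2 change of 4.32 ± 0.23 (limma adjusted p = 6.04e-07). Its alcohol samples lay far above all controls. Cdkn1b, or p27, rose by 0.51 ± 0.11 (adjusted p = 0.00248), a call that scaling by median ratios ended (0.112). Of 10 E2F and DREAM factors tested, 3 rose and 2 fell. E2f8, an atypical E2F that represses S-phase genes, fell to 0.324 ± 0.163 FPKM with alcohol, against 2.32 ± 1.24 FPKM in controls (limma adjusted p = 0.000982). E2f8 met the 1 FPKM minimum only through its controls. Rbbp4 of the MuvB complex fell by 0.50 ± 0.13, while E2f4 and E2f6, which act as repressors, rose by 0.53 ± 0.09 and 0.44 ± 0.12, the rise of E2f6 being lost under scaling by median ratios (adjusted p = 0.124). The call of Rbbp4 was lost on the TPM scale, and that of E2f4 in limma-voom with median-of-ratios scaling (adjusted p = 0.0646 each).

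Of 13 G1 cyclin partners and mitogen inputs tested, 10 rose and 0 fell, with a median log2 change of 0.56. Hgf, the hepatocyte growth factor, stood at 3.75 ± 0.838 FPKM with alcohol and 1.43 ± 0.328 FPKM in controls (SD, n = 4 each; limma adjusted p = 0.000388). Cdk6, the other kinase of the D cyclins, stood at 2.79 ± 0.159 and 1.46 ± 0.280 FPKM in the same order (limma adjusted p = 0.000487). Yap1, a growth coactivator, and Ccng2, cyclin G2, rose by 0.62 ± 0.11 and 0.56 ± 0.11, the call of Ccng2 ending under scaling by median ratios (adjusted p = 0.0546). Of 13 APC/C genes tested, 5 rose and 3 fell, the rises being a share near that of all tested genes. Anapc5 and the activator Fzr1 rose by 0.46 ± 0.10 and 0.40 ± 0.09, both lost under scaling by median ratios (adjusted p = 0.205 and 0.257), and Ube2s and Anapc2 had log2 changes of -0.56 ± 0.13 and -0.42 ± 0.10. Medians of the inhibitors, the E2F and DREAM factors and the APC/C genes were 0.11, 0.13 and 0.15 and turned to -0.10, -0.07 and -0.14 under scaling by median ratios. With that scaling the replication list had 2 rises and 15 falls, the mitotic list 1 and 6, the inhibitors 1 and 2, the E2F and DREAM factors 1 and 3, the G1 list 6 and 1, and the APC/C genes 0 and 4. Over all 9228 tested genes that scaling gave 2170 rises and 2616 falls. Falls of the inhibitors, the E2F and DREAM factors and the APC/C genes were then shares near that of all tested genes.

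Markers of several cell types moved beside these genes, and their part in the results was not tested; of all tested genes 44.2% rose and 13.0% fell. All 8 endothelial markers rose, with a summed level of 70.9 to 86.9 FPKM with alcohol and 16.5 to 26.1 FPKM in controls. Of 8 stellate cell markers, 4 rose and 1 fell (81.3 to 114 FPKM with alcohol, 39.6 to 68.0 in controls). Of 8 Kupffer cell and macrophage markers tested, 0 rose and 1 fell (66.0 to 109 and 52.4 to 160 FPKM in the same order), and of 7 tested erythroid markers 1 rose and 2 fell (128 to 201 and 188 to 370 FPKM). Hepatocyte markers summed to 50520 to 61160 FPKM with alcohol and 54680 to 62000 FPKM in controls, with 3 of 7 risen and 2 fallen. The B and plasma cell list had 1 fall of 2 tested, and Cd79a and Cd79b fell under 1 FPKM, to 0.186 ± 0.186 and 0.118 ± 0.107 FPKM with alcohol, against 0.796 ± 0.244 and 0.928 ± 0.322 FPKM in controls. The 8 T and NK cell markers listed were all under 1 FPKM and summed to 0.858 to 2.63 FPKM with alcohol and 2.55 to 6.33 FPKM in controls, with 1 fall, that of Cd4. Neutrophil markers, none of whose 2 tested genes passed, summed to 1.45 to 34.7 FPKM with alcohol and 2.75 to 4.61 FPKM in controls, the highest alcohol sum being that of replicate 1, with 13.7 FPKM of S100a8 and 18.4 FPKM of S100a9. Elane, a neutrophil marker near the floor, passed as a fall (limma adjusted p = 0.0478). It stood at 0.0142 ± 0.0284 FPKM with alcohol and 0.0944 ± 0.0509 FPKM in controls. Its groups overlapped, and it had too few reads for limma-voom. The 1 tested cholangiocyte marker did not pass (list sums 15.9 to 26.7 FPKM with alcohol and 19.1 to 41.8 FPKM in controls), while Sox9, under 1 FPKM over all samples, rose to 1.06 ± 0.431 FPKM with alcohol, against 0.465 ± 0.0907 FPKM in controls (limma adjusted p = 0.0356). With scaling by median ratios the marker lists had 8 rises and 0 falls (endothelial), 3 and 1 (stellate), 0 and 2 (Kupffer), 0 and 4 (erythroid), 1 and 2 (hepatocyte), 0 and 1 (cholangiocyte), 0 and 1 (B and plasma cell) and 0 and 0 (neutrophil). Over all 9228 tested genes that scaling gave 2170 rises and 2616 falls. No marker was at 0 in all 8 samples, while Mpo was listed at 0 in every alcohol sample and Ly6g in every control.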

How the data were processed

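RNA was sequenced from mouse samples labelled liver, 4 with alcohol and 4 controls, with groups taken from the sample labels. RNA was purified on columns and libraries were prepared with a SMARTER mRNA kit, per the labels' protocols. The deposited values are FPKM per gene symbol, 1 column per sample, which the authors scaled to gene length and library total. The genome builds are GRCm38 and mm10, per the submitters' processing notes, and no source used here names the aligner, the counter or the strand setting.

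Alcohol was set against control on log2(FPKM + 1) by limma 3.58.1 (R 4.3.3), with a term for the group, a variance trend, 2-sided p-values and Benjamini-Hochberg adjustment at 0.05. The 9228 genes averaging 1 FPKM or more made the main fit, and genes below it were read from a fit of all 21049 listed genes. A log2 change is alcohol minus control. Ratios in the sections on single genes are of reads divided by library totals, with 95% exact binomial (Clopper-Pearson) intervals that cover counting error only. Whole reads were recovered for 21047 genes (99.99%) to a tolerance of 1e-06 of a read, with 99.951% to 99.962% of each library total in those genes. The smallest whole length was taken, so a gene with few reads can have been given too few. Since the deposited unit is FPKM and not counts, the test on these reads was limma-voom, an alternative. The scripts were tested on simulated data.

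The genes and lists were chosen with earlier results of these data known. All 39 genes are named. From each pathway list, up to 4 genes were named by smallest p among those that passed; 1 gene so chosen is not reported here. Gene positions and overlaps are from GENCODE M21 on GRCm38. Pseudogenes named after Pcna (2), Tyms, Ccnb1, Ccnb2 and Ccnd3 (1 each) are annotated, and how their reads were divided is uncertain. Alternatives were other pseudocounts, minima, scalings, a replicate block and leaving out each library. Alcohol replicates 2 and 4 resembled each other more than did any further pair, with a chi-square per gene of 7.64 against 38.7 for the next pair. Sampling noise alone would hold it near 1, so each sample was counted once, and their mean as 1 sample was an alternative.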

Additional observations from a re-analysis of the deposited data

Results flagged for a closer look

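A sample was singled out where its gap to the nearest other sample of its group, over the range of the group, passed Dixon's 95% critical value for 4 samples. Of 122 groups examined over the named genes, 9 passed, and chance alone gives about 5%. No cause was tested for any of them.

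Among the replication and mitosis genes, Rrm2 stood at 10.9 FPKM in alcohol replicate 3, the ribonucleotide reductase value that kept the group's spread wide. Ccne1 stood at 0.666 FPKM in the same library, above the other alcohol samples and below all controls. Bub1 was at 0.00598 FPKM there, on its only read among the alcohol libraries. Cdc6 stood at 0.0843 FPKM in alcohol replicate 4, on 15 reads against 3 in each other alcohol library. Control replicate 2 was highest of its group for Cdt1 (2.10 FPKM) and Ccna2 (0.267 FPKM). In the pathway lists, Cenpa stood at 2.68 FPKM and Hgf at 0.940 FPKM in control replicate 1, and Ccng2 at 5.90 FPKM in control replicate 2.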

How the results depend on the processing

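Of the 15 called genes, 12 kept direction and call under every alternative that included them, and none turned. Gins1, Rfc3 and Cdk2 lost their call under 6, 7 and 3 settings, each with its direction kept. Of the 24 uncalled genes, 13 passed under some alternative and 7 changed sign somewhere.

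Over all tested genes, 4080 rose and 1203 fell. These counts were 2170 and 2616 with median-of-ratios scaling and 2270 and 2275 with quantile normalization, and limma-voom on reads with median-of-ratios scaling gave 3090 falls. Among the 14 genes of at least 1 FPKM, the TPM scale gave 3 rises and 3 falls in place of 1 and 6. Among the 25 under 1 FPKM, falls were 10 with median-of-ratios scaling, 11 with quantile normalization and 12 with voom and median-of-ratios scaling, in place of 6. The median log2 change of all tested genes was 0.24 without rescaling, 0.40 on the TPM scale, -0.03 with median-of-ratios scaling and 0.00 with quantile normalization. Leaving out 1 library gave 3537 to 4362 rises and 1000 to 1278 falls over all genes, 1 to 2 rises and 3 to 7 falls among the 14, and 2 rises throughout and 6 to 11 falls among the 25.

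The signs that turned all belonged to uncalled genes, as log2 changes. On the TPM scale Cdt1 was 0.051, Rrm1 0.0995 and Cdk4 0.064. With median-of-ratios scaling Prim1 was -0.133, Cdc6 -0.0063 and Bub1b -0.0005, with quantile normalization Prim1 was -0.231 and Cdc6 -0.0055, and with voom and median-of-ratios scaling Prim1 was -0.239. With alcohol replicates 2 and 4 as 1 sample Rrm1 was 0.036 and Cdc6 -0.0038. Leaving out 1 library gave -0.1292 to 0.1386 for Cdt1, -0.0146 to 0.1477 for Prim1, -0.0855 to 0.0530 for Rrm1, -0.0193 to 0.0123 for Cdc6, -0.0002 to 0.0396 for Bub1b and -0.1004 to 0.0061 for Ccna2. The cause was not tested.

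Both groups carry replicate numbers 1 to 4. Same-numbered samples deviated from their group means with correlations of 0.35, 0.22, 0.07 and 0.28, and alcohol replicate 3 correlated best with control replicate 1, so the numbers were not taken to pair the samples. With the replicate number as a block, 3 of the 14 genes rose in place of 1 (Rrm2 and Ccnd1 added) and 6 fell, 7 of the 25 fell in place of 6 (Ccnb1 added), and 4307 genes rose and 1380 fell over all. The planned edgeR test on recovered reads was not run, since the deposited unit is FPKM, and limma-voom, chosen after seeing the data, took its place. Depth limits the 9 genes that had under 10 reads in most libraries.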
